A study of Mus musculus with 15 samples.

Results

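The genes described here are the 45 protein-coding mouse genes whose GENCODE M21 symbol begins with Hnrnp (20 genes), Srsf (11 genes), Tra2 (2 genes), U2af (3 genes) or Sf3 (9 genes). They were taken by symbol and biotype from 21263 protein-coding rows among the 38561 gene rows of the count files. The rule uses no measured value, but it was chosen with earlier results of these data known. From these libraries the study had reported enrichment for RNA processing in a gene cluster whose expression declined as Purkinje cells matured. Gene expression was measured by RNA sequencing in Purkinje cells (PCs) cut by laser from the cerebellum of mice of the strain given as C56/BL6, male according to the study's methods, with no transgene or treatment named. The 15 libraries come from 5 ages, namely birth (postnatal day 0, P0) and days 4, 8, 14 and 21 (P4 to P21), and each age has 3 biological replicates. From P4 on the captured material was single cell bodies, while at P0 clusters of PCs were cut because single cells were hard to separate, so that the P0 group differs from the others in capture as well as in age.

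Total counts on genes ran from 3409371 to 7814951 per library, with a median of 5345170. All 6 PC markers examined rose with day, and their summed level in CPM (read counts scaled to library size by the trimmed mean of M values, TMM) went from a mean of 5340 at P0 to 42941 at P21. The material also held RNA of other cells. The summed CPM of 8 Bergmann glia and astrocyte markers was 4784 at P0 and 4077 at P21, with means of 9209 at P8 and 6613 at P14. Of these 8, 2 fell with day (Fabp7 and Aldh1l1) and 2 rose (Slc1a3 and Sept4). Mean Fabp7 went from 2687 CPM at P0 to 186 at P21, and mean Slc1a3 from 1439 to 2511. The summed CPM of 5 oligodendrocyte markers went from 22.4 at P0 to 569 at P21. For 2 granule neuron markers the sum was 68.2 at P0, 225 at P14 and 122 at P21. The sum of 3 vessel cell markers went from 75.8 at P0 to 23.7 at P21. For 4 microglia markers it was 3.43 at P0, 20.4 at P8 and 3.95 at P21. The sum of 4 interneuron markers went from 25.5 at P0 to 64.2 at P21. In these last lists Gabra6 rose and Pecam1 fell with day. The list of 6 markers of granule cell precursors and dividing cells stood at 389 to 415 CPM in the P0 libraries and at 1.0 to 3.68 in the P21 libraries. The 4 genes of this list that fell with day were Mki67, Top2a, Cdk1 and Ccnb1. Atoh1, a marker of the precursors, was at 0 in every library. Barhl1 had means of 1.13 to 5.13 CPM, and its trend with day did not pass (edgeR adjusted p = 0.728). Reads that counting assigned to no feature, as they were not fully contained in one, need not lie outside genes. They made up 24.1% to 29.8% of the tallied reads at P0, 20.1% to 23.4% at P4 and P8, and 16.7% to 19.1% at P14 and P21. In such bulk samples fewer cells of a type and less RNA per cell cannot be told apart.

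Pre-mRNA splicing is carried out by the spliceosome, which recognises the ends of each intron and joins the exons. The U2AF proteins bind the 3′ splice site and its pyrimidine tract, and the SF3A and SF3B proteins are parts of the U2 small nuclear ribonucleoprotein (snRNP) that pairs with the branch point. SR proteins, named for their arginine and serine repeats and encoded here by the Srsf genes, mostly bind exons and favour their inclusion. The Tra2 proteins are related activators. The hnRNP proteins coat nascent RNA and often favour exon skipping, although both groups act differently by position. Neurons rely on these factors for cell type-specific exons, and several of the factors limit their own level by splicing an exon with an early stop codon into their own transcripts.

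The promoters of 6 genes, forming 3 pairs of relatives, are shown because the genes of each pair did not change in parallel over the ages. Both Hnrnpa1 and Hnrnpa2b1 fell, but their ratio changed. Each promoter is the sequence directly before the RefSeq transcript start (GRCm38.p6), with 150 bases for all but Hnrnph2. There the stretch is cut at 53 bases because an exon of a neighbouring gene lies before it. Capitals mark, on either strand, the motifs searched: the GC box (GGGCGG), the CCAAT box, the TATA box (TATAAA), the ETS motif (CCGGAAG), the YY1 motif (AAGATGG), the E box (CACGTG), the CRE motif (TGACGTCA) and the E2F motif (TTCCCGC).
Hnrnph1 (chr11:50376840-50376989, plus strand): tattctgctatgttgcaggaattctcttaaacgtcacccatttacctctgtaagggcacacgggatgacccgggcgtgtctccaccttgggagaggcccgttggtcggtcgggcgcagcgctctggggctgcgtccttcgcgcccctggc
Hnrnph2 (chrX:134601126-134601178, plus strand): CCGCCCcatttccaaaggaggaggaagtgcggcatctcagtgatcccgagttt
Hnrnpa1 (chr15:103240247-103240396, plus strand): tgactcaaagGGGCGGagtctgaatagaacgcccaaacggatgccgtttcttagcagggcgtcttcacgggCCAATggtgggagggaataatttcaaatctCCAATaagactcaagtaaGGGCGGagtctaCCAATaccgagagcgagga
Hnrnpa2b1 (chr6:51469895-51470044, minus strand): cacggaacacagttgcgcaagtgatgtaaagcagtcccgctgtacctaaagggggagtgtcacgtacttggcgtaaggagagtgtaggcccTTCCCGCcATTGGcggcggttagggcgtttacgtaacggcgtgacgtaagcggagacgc
Tra2b (chr16:22266006-22266155, minus strand): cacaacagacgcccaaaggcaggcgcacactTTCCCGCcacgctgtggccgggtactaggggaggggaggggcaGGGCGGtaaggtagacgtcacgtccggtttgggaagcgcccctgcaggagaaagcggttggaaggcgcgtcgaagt
Tra2a (chr6:49264053-49264202, minus strand): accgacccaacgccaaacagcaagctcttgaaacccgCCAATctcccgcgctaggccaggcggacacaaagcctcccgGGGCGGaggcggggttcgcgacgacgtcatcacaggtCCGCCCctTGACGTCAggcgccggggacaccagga

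In these stretches Hnrnpa1 held 3 CCAAT boxes and 2 GC boxes, Hnrnpa2b1 and Tra2b each held 1 TTCCCGC, Tra2a held the CRE motif, and the stretch of Hnrnph1 held none of the motifs. Over the full RefSeq windows of 300 bases (250 before the start), which 40 of the 45 genes had, a GC box was found in 30 of 40 windows against 35.7% of all 32851 windows, and a CCAAT box in 20 of 40 against 37.4%. The ETS motif was in 12 of 40 windows against 8.86% of all, the TATA box in 5 against 13.6%, the YY1 motif in 2 against 6.34%, the E box in 4 against 7.15%, the CRE motif in 1 against 1.79% and the E2F motif in 7 against 4.6%. Divided by the trend with age described below, the ETS motif was in 2 of 19 windows of genes that fell and in 9 of 20 of those not called, and the TATA box in 4 and 1. The GC box was in 15 and 14 of these windows, the CCAAT box in 11 and 9, the E2F motif in 3 and 3, the E box in 3 and 1, the YY1 motif in 0 and 2 and the CRE motif in 0 and 1. The median window held 26.5 CpG dinucleotides (31 for the genes that fell and 24.5 for those not called), against 7 over all windows. A match describes letters in the window and is not evidence of binding.

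Of the 45 genes, 44 passed the filter on low counts and entered a test over 14293 genes. A quasi-likelihood test of the trend with postnatal day (edgeR, adjusted over all genes tested) called 19 of the 44 as falling and 0 as rising, where the background was 14.1% of all genes falling and 12.1% rising. At an unadjusted p below 0.05 the counts were 20 falling and 3 rising, against 2879 and 2378 of all 14293 genes tested. After adjustment, DESeq2 and limma-voom each called 1 gene, Hnrnpc, as rising. The slopes lay below 0 in 35 of 44 genes, and the median slope was -0.031 in log2 units per day, against -0.0077 over all genes tested. The genes that fell were 1.48- to 4.09-fold higher at P0 than at P21, with a median of 2.18-fold. By family, 12 of 20 Hnrnp, 5 of 10 tested Srsf, 1 of 2 Tra2, 1 of 9 Sf3 and 0 of 3 U2af genes fell.

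**Figure D1:**
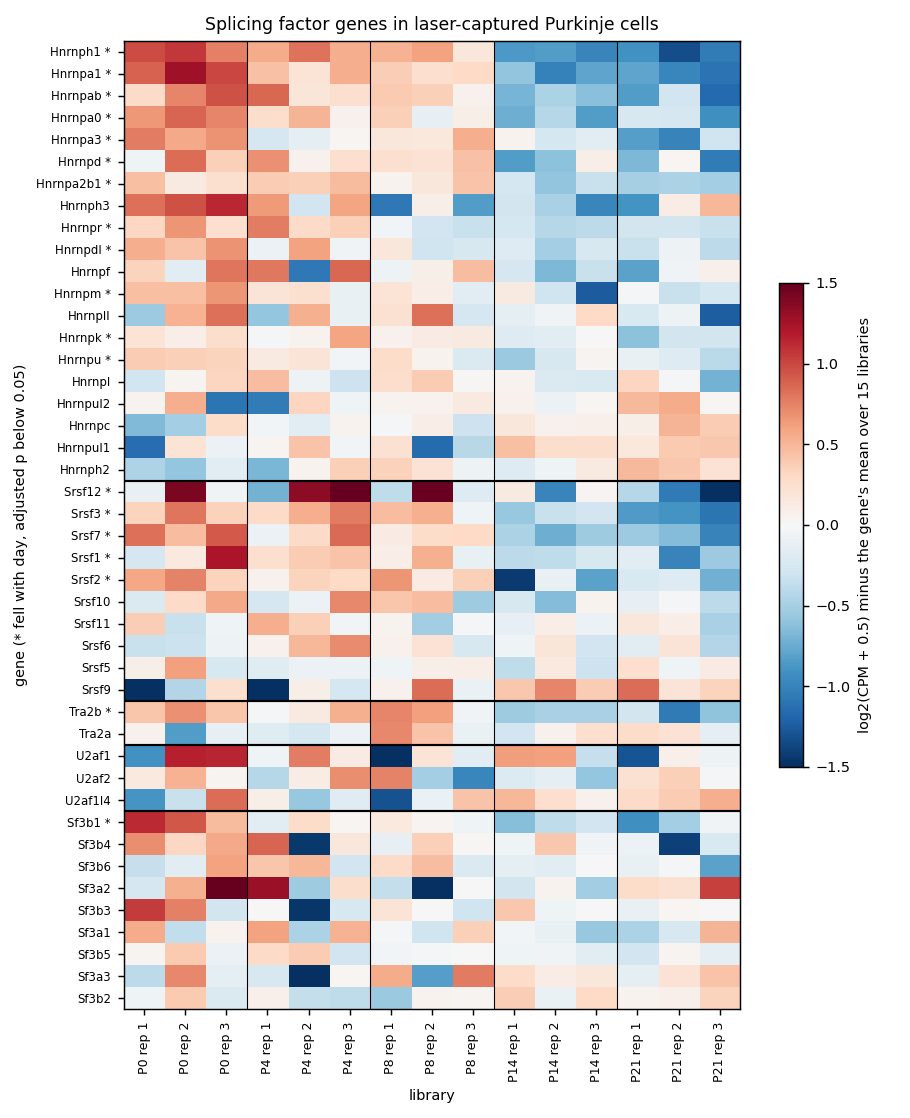
Level of the 44 tested genes in each of the 15 libraries, as log2(CPM + 0.5) minus the gene's own mean over all libraries, with colours saturating at 1.5 in either direction. Rows are grouped by family and ordered by slope within it, asterisks mark the 19 genes that fell with day, and for most of those the P14 and P21 columns are blue.

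Summed over the 45 genes, the level went down from 6536 ± 244 CPM at P0 to 5864 ± 167 at P4 and 5513 ± 218 at P8, and then to 4259 ± 59.8 at P14 and 4225 ± 165 at P21 (mean ± SD, n = 3). The lowest P8 library (5262) lay above the highest P14 library (4319), and the P14 and P21 libraries overlapped. As an unscaled share of all counts on genes, the sum went from 0.730% at P0 to 0.369% at P21.

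**Figure D2:**
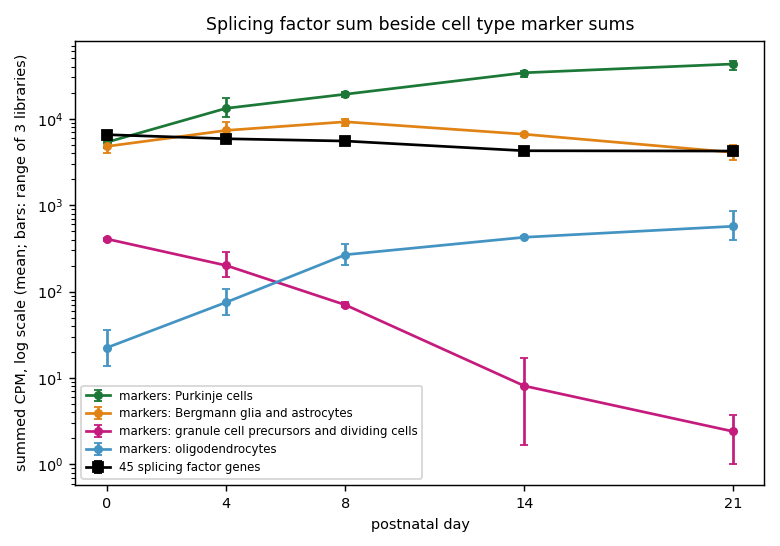
Summed CPM (log axis) of the 45 splicing factor genes and of 4 lists of cell type markers against postnatal day, with points for the mean and bars for the range of 3 libraries. The splicing factor sum drops from 6536 to 4225, while PC markers rise to 42941 and markers of precursors and dividing cells drop to 2.41.

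Splicing factor genes are widely expressed, and the markers of dividing cells declined over the same ages. The share of reads assigned to no feature was highest at P0 and lowest at P14 and P21, but higher at P8 (21.5% to 23.4%) than at P4 (20.1% to 21.2%). The part of either in the result was not tested. Without the P0 libraries, where the dividing cell markers and the reads assigned to no feature were highest, 12 of 44 genes fell and 0 rose. The backgrounds were 11.0% and 10.2%. The 7 calls lost there were Hnrnpa3, Hnrnpdl, Hnrnpm, Hnrnpr, Hnrnpu, Sf3b1 and Srsf2. Without the P21 libraries 12 fell and 0 rose, against 7.84% and 8.89%. On total counts without the TMM scaling 25 fell and 0 rose, against 20.1% and 8.61%. The calls gained there were Hnrnpf, Hnrnph3, Sf3b4, Sf3b5, Sf3b6 and Srsf10. With P8, P14 and P21 alone, a choice made after the marker sums were seen, 8 fell and 0 rose, against backgrounds of 5.81% and 6.61%. These 8 were Hnrnpa1, Hnrnpa2b1, Hnrnpa3, Hnrnpab, Hnrnph1, Srsf3, Srsf7 and Tra2b. The sum of the dividing cell markers was still 66.0 to 74.9 CPM at P8 and 1.66 to 17.1 at P14. The sum of the Bergmann glia and astrocyte markers was 8178 to 9876 CPM at P8 and 6371 to 6841 at P14. Between these ages mean Fabp7 went down and mean Slc1a3 went up. The part of the glial RNA in the result was not tested.

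Hnrnph1 (ENSMUSG00000007850, chr11:50376990-50386528, plus strand) and Hnrnph2 (ENSMUSG00000045427, chrX:134601179-134607060, plus strand) encode close relatives that bind runs of G in pre-mRNA. Hnrnph1 had the steepest slope of the genes that fell, and its CPM values by library were 258, 273 and 221 at P0, 192, 230.1 and 191 at P4, 188, 199 and 147 at P8, 71.8, 73.0 and 65.8 at P14, and 69.4, 51.7 and 62.8 at P21. Every P14 and P21 library lay below every earlier one. Its slope was -0.107 ± 0.011 in log2 units per day (± SE, edgeR adjusted p = 1.59e-06), and it was 4.09-fold higher at P0 than at P21. Most of that difference fell between P8 and P14, with a log2 change of -1.34 ± 0.20 (edgeR adjusted p = 0.00144).

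The course of Hnrnph2 ran the other way, with CPM values of 84.0, 77.2 and 104 at P0, 71.9, 119.9 and 149 at P4, 147, 135 and 109.8 at P8, 101, 110.3 and 127 at P14, and 163, 154 and 135 at P21. All P8 and P21 libraries lay above those of P0, while P4 and P14 overlapped them. Its slope of 0.028 ± 0.011 was not called (edgeR adjusted p = 0.0772, and 0.0405 without P4 replicate 3), while the difference between P21 and P0 was, at a log2 change of 0.77 ± 0.25 (edgeR adjusted p = 0.0393). It was the 1 gene among the 44 that was higher at P21 than at P0 by this test, against 16 that were lower (11 to 17 with 1 library left out), where the backgrounds were 12.2% and 10.6%. For the genes higher at P21, leaving out 1 library at a time gave 2 genes without P0 replicate 3, 1 gene without each P4 replicate in turn, and 0 genes in each of the other 11 fits. Per exon length, the RPKM (reads per kilobase of exon, scaled to library size) of Hnrnph1 was 2.13 times that of Hnrnph2 at P0 and 0.306 times at P21.

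The 2 other genes of the H and F group were low and variable. Hnrnph3 had means of 73.5 ± 7.92 CPM at P0 and 37.4 ± 16.6 at P21 (mean ± SD, n = 3) and did not pass (edgeR adjusted p = 0.102), with its lowest mean, 25.2 ± 6.06, at P14. Hnrnpf went from 74.9 ± 24.9 to 49.6 ± 14.9 CPM and did not pass either (edgeR adjusted p = 0.136). Hnrnph3 was called falling without P21 replicate 3, without all P21 libraries, on a scale of log2(day + 1) and on total counts without TMM. Hnrnpf was called falling without P4 replicate 2 and on total counts without TMM.

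All 5 genes of the hnRNP A and B group, which bind AU- and AG-rich motifs and act in splicing, export and transport of RNA, fell with day. Hnrnpa1 (ENSMUSG00000046434, chr15:103240432-103246692, plus strand), a classic silencer of exons, stood, in CPM, at 201, 262 and 218 at P0, 147, 125 and 158 at P4, 140.3, 129 and 133 at P8, 71.6, 53.2 and 62.2 at P14, and 62.4, 54.9 and 50.1 at P21. The P0 libraries were all above the P4 and P8 libraries, and those in turn were all above P14 and P21. The slope was -0.099 ± 0.011 (edgeR adjusted p = 1.72e-06) and the fold of P0 over P21 was 4.07. Between P8 and P14 the log2 change was -1.11 ± 0.20 (edgeR adjusted p = 0.00704).

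Hnrnpa2b1 (ENSMUSG00000004980, chr6:51460932-51469894, minus strand), whose products also carry RNA in neuronal processes, was the most counted gene of the A and B group. It had CPM values of 735, 588 and 631 at P0, 699.8, 684 and 744 at P4, 555, 604 and 718 at P8, 446, 356 and 425 at P14, and 379.9, 385 and 377 at P21. The first 3 ages overlapped, and every P14 and P21 library lay below them. Its slope was -0.046 ± 0.0085 (edgeR adjusted p = 0.000418), and the change from P8 to P14 was -0.61 ± 0.15 on the log2 scale (edgeR adjusted p = 0.0404). That change was called in 4 of the 15 fits with 1 library left out (P0 replicate 1, P0 replicate 2, P4 replicate 2 or P21 replicate 3), and not with the replicate number as a block.

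Per exon length, Hnrnpa0, a single-exon gene, had the highest level of all 45 genes, with a mean of 91.8 RPKM over the 15 libraries, and Hnrnpa2b1 came next with 86.1. Hnrnpa0 had CPM values of 348, 407 and 369.9 at P0, 268, 318 and 233 at P4, 285, 204 and 237 at P8, 134, 165 and 124 at P14, and 188, 186 and 118 at P21. Its late libraries lay below all earlier ones, and its slope was -0.060 ± 0.011 (edgeR adjusted p = 0.000414).

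Hnrnpab, which binds AU-rich RNA, had CPM values of 128, 174 and 204 at P0, 192, 119 and 126 at P4, 139, 135 and 110.0 at P8, 64.6, 75.5 and 68.1 at P14, and 58.4, 86.2 and 46.8 at P21. The late libraries were again below the rest, and the slope was -0.074 ± 0.012 (edgeR adjusted p = 0.000159). Hnrnpa3 stood at a mean of 93.5 ± 6.37 CPM in the P0 libraries, with 54.1 ± 5.51 at P4 and 72.2 ± 11.7 at P8. Its mean was 53.7 ± 6.27 in the P14 and 36.4 ± 9.72 in the P21 libraries. Every P8 library of Hnrnpa3 lay above every P4 library. Its slope was -0.055 ± 0.013 (edgeR adjusted p = 0.00415), a call lost without the P0 libraries (edgeR adjusted p = 0.127).

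**Figure D3:**
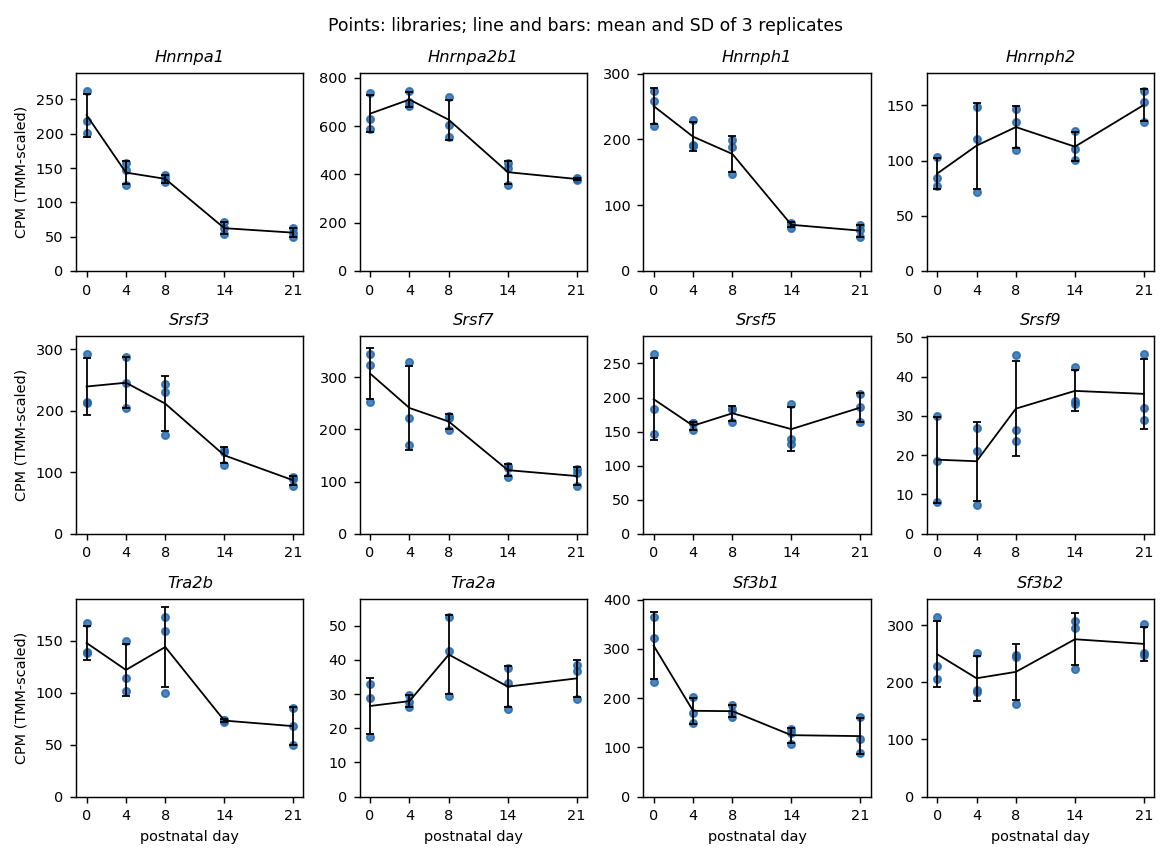
CPM of 12 genes against postnatal day, with a point for each library and the mean and SD of 3 replicates as line and bars. Mean Hnrnph1 drops from 178 CPM at P8 to 70.2 at P14, while Hnrnph2, Srsf5, Srsf9, Tra2a and Sf3b2 were not called falling or rising with day.

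Hnrnpd (AUF1), a factor in the decay of AU-rich mRNA, and its relative Hnrnpdl both fell. Hnrnpd had CPM values of 50.8, 95.4 and 68.3 at P0, 85.9, 55.2 and 63.2 at P4, 62.7, 61.8 and 72.2 at P8, 29.5, 34.5 and 56.4 at P14, and 33.0, 54.2 and 25.5 at P21. Its P0 libraries overlapped those of every later age, and its slope was -0.051 ± 0.015 (edgeR adjusted p = 0.0186), a call lost without P21 replicate 1 or P21 replicate 3. For Hnrnpdl the values were 222, 205 and 243 at P0, 143, 231 and 146 at P4, 172, 123 and 128 at P8, 133, 106 and 128 at P14, and 121, 144 and 116 at P21. The P0 libraries of Hnrnpdl lay above all those of P8, P14 and P21, and the slope was -0.038 ± 0.01 (edgeR adjusted p = 0.00842).

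Hnrnpk, which binds C-rich RNA and DNA, had CPM values of 390.2, 363 and 406 at P0, 334, 353 and 511 at P4, 355, 368 and 373 at P8, 297, 300.1 and 340.4 at P14, and 222, 279 and 280.2 at P21. It held its level through P8 and then declined, with each P21 library below each library of the first 3 ages, a slope of -0.030 ± 0.0082 (edgeR adjusted p = 0.0106) and a 1.48-fold higher level at P0 than at P21. That fold was the smallest among the 19 genes that fell. The Hnrnpk call was lost on a scale of log2(day + 1) (edgeR adjusted p = 0.0859), without the P21 libraries (0.238) and with P8, P14 and P21 alone (0.0741). Hnrnpu, a nuclear scaffold protein, went from 322 ± 5.46 to 215 ± 22.7 CPM, and its slope of -0.028 ± 0.0083 was the shallowest of those called (edgeR adjusted p = 0.0179), and was not called without P21 replicate 3. Hnrnpr, a binder of neuronal mRNAs, stepped down between P4 (112 ± 20.9 CPM) and P8 (68.9 ± 7.80) by its means, and its slope was -0.041 ± 0.011 (edgeR adjusted p = 0.00849). Hnrnpm went from 124 ± 10.8 to 74.6 ± 8.77 CPM and was the call nearest the threshold (edgeR adjusted p = 0.0428). That call was lost without any single P0 replicate, P4 replicate 2, P14 replicate 2, P21 replicate 2 or P21 replicate 3.

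The remaining Hnrnp genes did not pass. Hnrnpc, which binds runs of U and shields introns, had CPM values of 120.2, 134 and 231 at P0, 185, 171 and 198 at P4, 189, 205 and 155 at P8, 215, 201 and 202 at P14, and 203, 272 and 248 at P21. Its P21 libraries lay above those of P4, and its slope of 0.025 ± 0.0095 (95% interval 0.005 to 0.046) was above 0 with an edgeR adjusted p of 0.0578. This gene was called rising by DESeq2 and by limma-voom, and by edgeR without P0 replicate 3, which at 231 CPM was the high value of its group.

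Hnrnpl, a binder of CA repeats, had CPM values of 77.5, 97.6 and 119 at P0, 131, 89.9 and 76.8 at P4, 114, 124 and 95.8 at P8, 98.3, 82.0 and 81.2 at P14, and 119, 92.8 and 58.0 at P21. Its paralog Hnrnpll had CPM values of 30.2, 63.7 and 78.6 at P0, 29.4, 64.0 and 40.9 at P4, 51.8, 79.2 and 37.1 at P8, 39.9, 42.5 and 54.7 at P14, and 37.7, 42.1 and 18.6 at P21. Neither showed groups that separate, with edgeR adjusted p values of 0.627 and 0.227 for the slopes. Hnrnpul1 and Hnrnpul2 are relatives of Hnrnpu. Hnrnpul1 had CPM values of 14.2, 36.9 and 30 at P0, 32.9, 43.1 and 31.0 at P4, 37.5, 14.1 and 23.9 at P8, 43.8, 38.3 and 38.4 at P14, and 35.7, 41.9 and 42.4 at P21. Hnrnpul2 had CPM values of 46.9, 66.5 and 20.9 at P0, 21.6, 57.1 and 43.5 at P4, 47.0, 46.9 and 49.7 at P8, 47.5, 42.5 and 46.5 at P14, and 63.8, 66.7 and 45.8 at P21. The P14 libraries of Hnrnpul1 lay above those of P0 and P8, the ages of Hnrnpul2 overlapped, and the slopes had 95% intervals of -0.013 to 0.064 and -0.016 to 0.054.

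Among the SR genes, 5 of the 10 tested fell. Srsf3 (ENSMUSG00000071172, chr17:29032628-29043373, plus strand), the smallest SR protein and a link between splicing and export, had CPM values of 212, 292 and 214 at P0, 205, 245 and 287 at P4, 231, 244 and 160.2 at P8, 112, 133 and 137 at P14, and 93.1, 89.6 and 78.3 at P21. The first 3 ages overlapped, P14 lay below all of them and P21 below P14. The slope was -0.077 ± 0.011 (edgeR adjusted p = 2.93e-05), with a 2.75-fold higher level at P0 than at P21. Its close paralog Srsf7 (ENSMUSG00000024097, chr17:80200080-80207307, minus strand) had CPM values of 324, 252 and 344 at P0, 171, 223 and 329 at P4, 199, 221 and 225 at P8, 131, 109 and 126 at P14, and 125, 116 and 90.8 at P21. All late libraries were again lowest, the slope was -0.074 ± 0.011 (edgeR adjusted p = 3.3e-05), and at 58.0 RPKM it was the highest SR gene per length.

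Srsf2 (SC35), a component of nuclear speckles, had CPM values of 218, 243 and 183 at P0, 151, 183 and 179 at P4, 229, 158 and 187 at P8, 53.2, 134 and 83.1 at P14, and 124, 127 and 87.6 at P21. P14 replicate 1 was the lowest library and the late libraries lay below the early ones, with a slope of -0.051 ± 0.014 (edgeR adjusted p = 0.0111). Srsf1, the founding SR protein, had CPM values of 67.5, 88.7 and 188 at P0, 95.4, 105 and 108 at P4, 86.3, 116 and 74.0 at P8, 61.1, 61.7 and 68.0 at P14, and 71.4, 39.8 and 54.9 at P21. P0 replicate 3 stood well above its group, while P0 replicate 1 lay within the range of the late libraries, and the slope was -0.054 ± 0.014 (edgeR adjusted p = 0.00738).

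Srsf12, an SR protein at low level that can oppose other SR proteins, had the widest spread of the genes that fell, with CPM values of 18.1, 53.0 and 18.6 at P0, 11.8, 50.3 and 63.0 at P4, 14.9, 55.5 and 17.0 at P8, 21.5, 9.58 and 20.2 at P14, and 14.4, 9.11 and 4.003 at P21. The P21 libraries lay below those of P0 and P8 while the other ages overlapped, the slope was -0.098 ± 0.033 (edgeR adjusted p = 0.0346), and limma-voom did not call it (adjusted p = 0.101). The call was lost without any single one of P0 replicate 2, P4 replicate 2, P4 replicate 3, P14 replicate 2, P21 replicate 2 and P21 replicate 3.

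The SR genes that did not pass include Srsf9, a paralog of Srsf1, with CPM values of 8.08, 18.5 and 30 at P0, 7.36, 26.9 and 21.1 at P4, 26.4, 45.6 and 23.5 at P8, 33.7, 42.3 and 33.0 at P14, and 45.7, 29.0 and 32.0 at P21. By the fit it was 1.89-fold higher at P21 than at P0, but the P0 libraries spread from 8.08 to 30 CPM and the slope of 0.051 ± 0.023 had an edgeR adjusted p of 0.113. Srsf10, which turns from activator to repressor when it loses its phosphates, had CPM values of 82.1, 117 and 141 at P0, 80.2, 89.5 and 157 at P4, 128, 131 and 65.8 at P8, 80.4, 60.5 and 98.5 at P14, and 87.1, 94.5 and 72.7 at P21. Its ages overlapped (edgeR adjusted p = 0.207). Srsf6 had CPM values of 51.7, 52.4 and 62.0 at P0, 68.4, 92.8 and 107 at P4, 68.7, 76.5 and 55.3 at P8, 62.4, 74.3 and 53.6 at P14, and 58.8, 74.8 and 48.2 at P21. Its highest mean was at P4, and its edgeR adjusted p was 0.7. For Srsf5 and Srsf11 the 95% intervals of the slope were -0.024 to 0.018 and -0.034 to 0.016, both with 0 inside.

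Srsf4 did not pass the filter, with 14, 5 and 13 counts in P8 replicate 3, P14 replicate 2 and P21 replicate 3 and 0 counts in the other 12 libraries. If all its reads could be counted, a count of 0 would allow a level of up to 0.384 to 0.880 CPM. These bounds are set by 3 counts in the deepest and the shallowest library. Of its exon bases 43.0% are shared with the gene Gm12992, from which unstranded reads cannot be told apart. Reads there may be left uncounted, so that a count of 0 can go with a higher level.

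Tra2b (ENSMUSG00000022858, chr16:22244549-22266005, minus strand), which activates exons with GAA repeats, had CPM values of 138, 167 and 139 at P0, 102, 114 and 149.7 at P4, 173, 159 and 99.6 at P8, 71.4, 74.1 and 73.7 at P14, and 85.5, 49.6 and 68.2 at P21. It stayed level through P8 and was lower in every P14 and P21 library, with a slope of -0.059 ± 0.013 (edgeR adjusted p = 0.00209). Its paralog Tra2a (ENSMUSG00000029817, chr6:49243924-49264033, minus strand) had CPM values of 33.1, 17.5 and 29.0 at P0, 27.7, 26.3 and 29.8 at P4, 52.6, 42.5 and 29.5 at P8, 25.8, 33.1 and 37.6 at P14, and 38.4, 36.9 and 28.5 at P21. No age stood apart, and its slope of 0.016 ± 0.017 did not pass (edgeR adjusted p = 0.544) and changed sign, to -0.0017, on total counts without the TMM scaling.

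None of the 3 U2af genes passed. U2af2, the large subunit that binds the pyrimidine tract, went from 27.4 ± 5.03 to 26.4 ± 3.66 CPM. U2af1, the small subunit, which contacts the AG of the 3′ splice site, had CPM values of 6.73, 29.96 and 29.4 at P0, 12.5, 22.5 and 14.2 at P4, 3.23, 15.1 and 11.6 at P8, 20.4, 20.3 and 10.2 at P14, and 5.01, 13.8 and 12.3 at P21. It was the lowest of the 3 by mean CPM. U2af1l4, its relative, had CPM values of 33.3, 49.2 and 111 at P0, 66.0, 41.7 and 54.8 at P4, 24.8, 58.0 and 83.6 at P8, 87.6, 73.9 and 65.1 at P14, and 75.8, 80.7 and 91.1 at P21. However, 66.1% of its exon bases belong to other genes too, among them Psenen, so that its level is uncertain.

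In the SF3 complexes 1 of 9 genes fell. It was Sf3b1 (ENSMUSG00000025982, chr1:54985169-55027481, minus strand), the large scaffold of SF3B that closes around the branch point, with CPM values of 365, 322 and 233 at P0, 149, 203 and 171 at P4, 187, 173 and 161 at P8, 107, 129 and 137 at P14, and 88.5, 118 and 163 at P21. All P0 libraries lay above all others, the slope was -0.058 ± 0.012 (edgeR adjusted p = 0.00099), and the change from P0 to P4 was -0.81 ± 0.24 on the log2 scale (edgeR adjusted p = 0.104). Without the P0 libraries its slope no longer passed (edgeR adjusted p = 0.0844).

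Its partner in SF3B, Sf3b2, had CPM values of 228, 314 and 205 at P0, 252, 186 and 183 at P4, 162, 248 and 245 at P8, 308, 223 and 295 at P14, and 248, 251 and 302 at P21. Its P0 libraries overlapped every later age, and the slope of 0.013 ± 0.01 (edgeR adjusted p = 0.408) changed sign, to -0.0046, on total counts without TMM. The small branch point protein Sf3b6 was the highest of the Sf3 genes per length, at 67.6 RPKM. It had CPM values of 145, 164 and 282 at P0, 248, 261 and 152 at P4, 225, 256 and 159 at P8, 167, 165 and 186 at P14, and 171, 182 and 106 at P21. Its ages overlapped, and its edgeR adjusted p was 0.209. The other SF3B genes (Sf3b3, Sf3b4 and Sf3b5) and the SF3A genes (Sf3a1, Sf3a2 and Sf3a3) had adjusted p values from 0.161 (Sf3b4, which was called falling without P4 replicate 2) to 0.728 (Sf3a3). Sf3b5 showed the least spread among these, with means of 215 ± 37.9 CPM at P0 and 181 ± 20.9 at P21 and a 95% interval of -0.032 to 0.004 for its slope. Sf3a2 was the lowest, with means from 4.73 to 16.2 CPM.

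**Figure D4:**
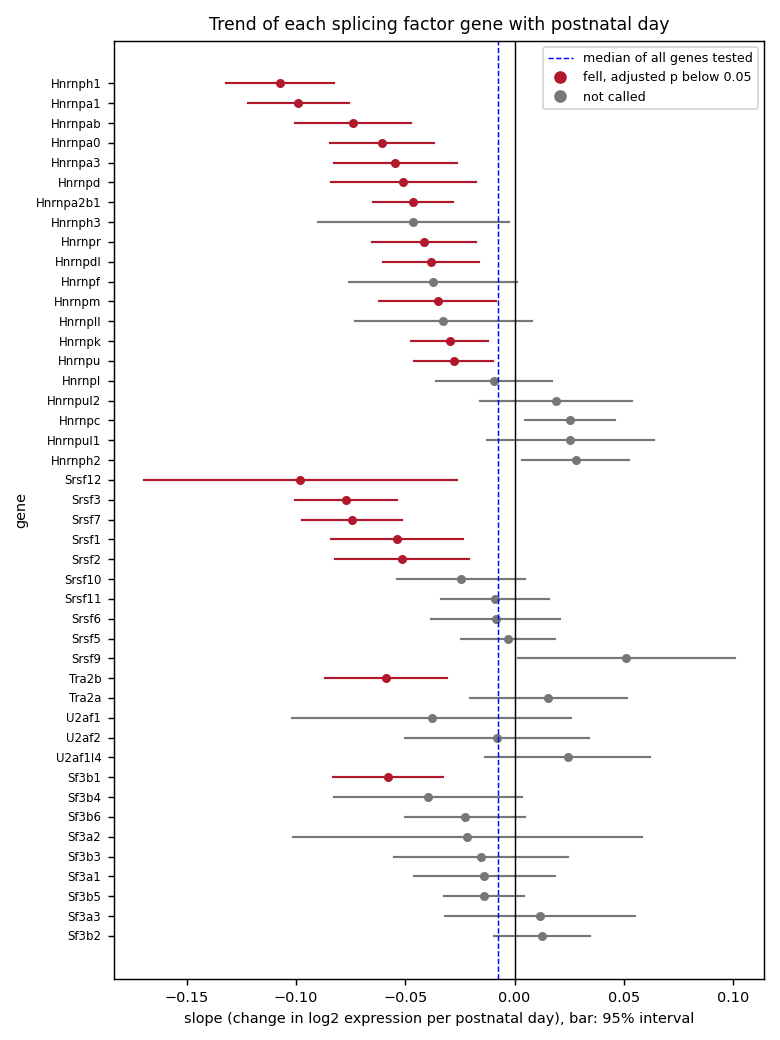
Slope of log2 expression per postnatal day for the 44 tested genes, with 95% intervals, grouped by family. Red marks the 19 genes that fell, grey the 25 not called, and the dashed line the median slope of all genes tested (-0.0077).

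Between neighbouring ages, the step from P8 to P14 was the 1 step with calls among the 44 genes. There 3 genes were lower (Hnrnph1, Hnrnpa1 and Hnrnpa2b1) and 0 higher, against backgrounds of 1.38% and 1.29%. Hnrnph1 and Hnrnpa1 were called in all 15 fits with 1 library left out, and the count lower ran from 2 to 4. For P4 against P0, P8 against P4 and P21 against P14 edgeR called 0 in both directions. The backgrounds were 0.231%, 0.252% and 0.266% lower and 1.74%, 0.882% and 0.063% higher. At an unadjusted p below 0.05 there were 5, 1 and 1 lower and 1, 0 and 0 higher. Over all 14293 genes tested the unadjusted counts were 675, 737 and 649 lower and 1448, 951 and 354 higher. The median log2 change of the 44 genes was -0.19, -0.078, -0.27 and -0.017 over the 4 steps in order of age, against 0.032, -0.018, -0.041 and -0.030 over all genes tested. The fitted change was below 0 in 28, 30, 34 and 25 of the 44 genes, against 6809, 7295, 7445 and 7435 of all 14293. Of the 19 genes that fell, 14, 16, 19 and 13 were lower by mean CPM at the later age of each step. These 19 were picked for falling over the same libraries, so their counts follow in part from that choice. In a test for any difference among the 5 ages 13 of the 44 genes were called, against 19.3% of all genes. In 10 of the 44 genes every P14 and P21 library lay below every P0 and P4 library, a pattern that 7.14% of all tested genes showed. In 0 of the 44 they lay above, which 8.24% showed.

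Ratios of related genes within a library do not depend on how libraries are scaled. For 11 pairs the log2 ratio of counts was correlated with day over the 15 libraries, with 100000 two-sided permutations and adjustment over the 11 pairs. The Hnrnph1 to Hnrnph2 ratio changed most. Its log2 value went from 1.51 ± 0.38 at P0 through 0.90 ± 0.53 at P4 and 0.45 ± 0.10 at P8 to -0.68 ± 0.24 at P14 and -1.30 ± 0.24 at P21 (mean ± SD, n = 3). More counts fell on Hnrnph1 in every library to P8 and on Hnrnph2 in every library after it. Pearson's r was -0.96 (permutation adjusted p = 0.00011, from the smallest p that these permutations can give), Spearman's rho was -0.94 (permutation adjusted p = 5.5e-05), and r was -0.96 to -0.94 without the libraries farthest from the median day. The 3 P21 libraries tie as farthest, so here and below the range of r is given over the 3 ways to leave out 2 of them.

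The Tra2a to Tra2b ratio went the other way, from -2.52 ± 0.64 at P0 to -0.94 ± 0.45 at P21 on the log2 scale. Counts of Tra2b stayed above those of Tra2a in all 15 libraries, with r = 0.87 (permutation adjusted p = 0.00022), rho = 0.91 (permutation adjusted p = 0.000147) and r = 0.83 to 0.90 without 2 of the P21 libraries. For Srsf1 to Srsf9 the log2 ratio went from 2.65 ± 0.39 to 0.62 ± 0.16, with r = -0.87 (permutation adjusted p = 0.00022), rho = -0.92 (permutation adjusted p = 5.5e-05) and r = -0.86 to -0.83 without 2 P21 libraries.

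Both Hnrnpa1 and Hnrnpa2b1 fell, but not in parallel. Their log2 ratio was -1.52 ± 0.35 at P0, -2.31 ± 0.12 at P4 and -2.77 ± 0.16 at P21, with r = -0.83 (permutation adjusted p = 0.00033), rho = -0.87 (permutation adjusted p = 0.000165) and r = -0.85 to -0.78 without 2 P21 libraries. The ratio of Sf3b1 to Sf3b2, which are partners and not paralogs, went from 0.30 ± 0.34 to -1.16 ± 0.30, with r = -0.83 (permutation adjusted p = 0.000528), rho = -0.82 (permutation adjusted p = 0.0011) and r = -0.86 to -0.77 without 2 P21 libraries. It did not pass with P8, P14 and P21 alone (r = -0.68, permutation adjusted p = 0.0903). In these 5 pairs the P14 and P21 libraries did not overlap the P0 and P4 libraries.

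U2af1 to U2af1l4 passed (r = -0.62, permutation adjusted p = 0.0219, rho = -0.59, permutation adjusted p = 0.0445), with r = -0.63 to -0.44 without 2 of the P21 libraries. Its groups overlapped, and it no longer passed without P21 replicate 1 (r = -0.52, permutation adjusted p = 0.0911). Srsf10 to Srsf12 lay at the edge (r = 0.55, permutation adjusted p = 0.0539, rho = 0.45, r = 0.27 to 0.50 without 2 P21 libraries) and passed without P0 replicate 3 (r = 0.67, permutation adjusted p = 0.0170). The other 4 pairs did not pass, with r from -0.23 (Hnrnpd to Hnrnpdl) to 0.32 (Hnrnpl to Hnrnpll). Among them Srsf3 to Srsf7 had r = -0.041 with log2 means between -0.36 and 0.068, while both genes fell.

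**Figure D5:**
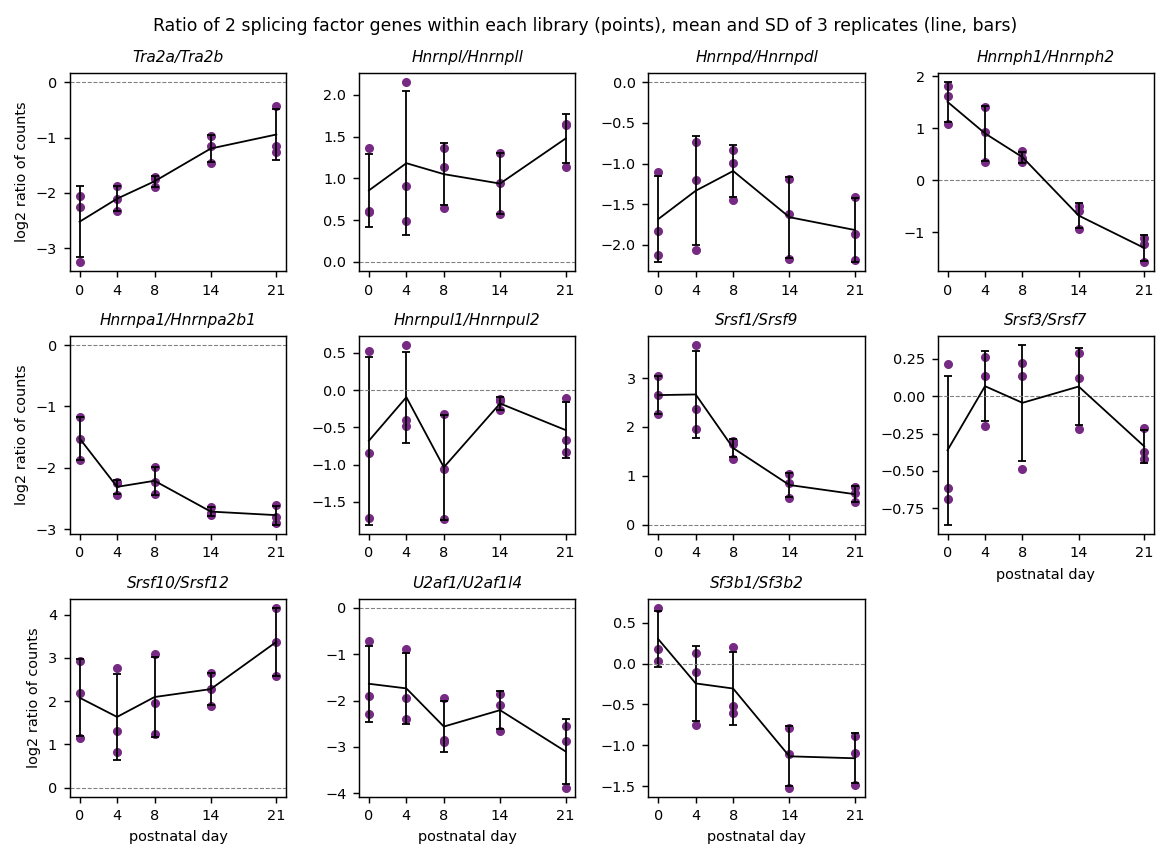
Log2 ratio of counts of 2 related genes within each library against postnatal day for 11 pairs, with a point per library and the mean and SD of 3 replicates. Hnrnph1/Hnrnph2 crosses the dashed line at 0 (equal counts) between P8 and P14, from a mean of 0.45 to -0.68, and Tra2a/Tra2b climbs from -2.52 to -0.94.

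Other genes of the same machinery were counted from lists by function. Of 24 snRNP core genes 7 fell and 0 rose. The smallest adjusted p values were those of Snrpe (slope -0.080), Snrpa1 (-0.097), which belongs to the U2 snRNP, and Snrpg (-0.13), and the list's median slope was -0.026. Of 19 relatives of the hnRNPs under other names 9 fell and 0 rose, with a median slope of -0.060. Syncrip (slope -0.093), Rbmx (-0.13) and the cold-inducible Cirbp (-0.078) had the smallest adjusted p values. Among 14 partners of U2 and U2AF 1 fell (Rbm5) and 1 rose (Zrsr1, a relative of U2af1, slope 0.097), with a median of -0.0058. Of 15 kinases, phosphatases and importins of SR proteins 2 fell (Srpk1, the SR protein kinase, and Tnpo3, the SR protein importin) and 1 rose (Tnpo2, slope 0.072). Of 14 SR-related genes 0 fell and 1 rose (Arl6ip4). The backgrounds for these counts are the 14.1% falling and 12.1% rising given above.

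Reads were kept only where they mapped to 1 place, so genes with near-identical copies may be undercounted. Exons of others, among them Srsf2, Hnrnpab, Hnrnpm and U2af1l4, overlap those of another gene. Reads there can be tallied as ambiguous and left uncounted. Of the 45 genes, 14 shared at least 25% of their exon bases or of the 50-base words of their transcript with other annotated genes, and 7 of these fell. Hnrnpa1 shared 46.4% of its words, with Gm10052 and others, Hnrnpk 37.8%, Srsf2 35.2%, Srsf3 31.5%, Hnrnpab 29.0%, Hnrnpm 28.8% and Hnrnpa3 28.3%. Among those not called, U2af1l4 shared 97.3%, Hnrnpf 67.3%, U2af1 59.4% and Sf3b4 51.2%. Among the 26 genes with less than 10% shared by either measure, 11 fell and 0 rose.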

How the data were processed

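RNA from laser-captured PCs was sequenced in 15 libraries, 3 at each of P0, P4, P8, P14 and P21, after SMARTer amplification, which does not mark strand. The deposited files hold raw counts per Ensembl gene. Per the labels and the study's methods, the authors trimmed paired reads (cutadapt 1.2.1), aligned them to GRCm38 (mm10) with GSNAP, kept uniquely mapped reads and counted them with HTSeq (0.5.3p9), and the annotation release is not given in the sources used here. The 5 HTSeq tally rows per file were left out of library sizes.

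Symbols, biotypes and exon lengths came from GENCODE M21, which matched 36723 of 38561 gene rows. All genes passing edgeR's expression filter by age were fitted together (edgeR 4.0.16, limma 3.58.1, R 4.3.3, TMM scaling, quasi-likelihood F test, Benjamini-Hochberg at 0.05), with day as a number or age as a factor. CPM are TMM-scaled, RPKM use total counts on genes and summed exon length, and ratios add 0.5 counts. With age as a factor, p-values measure the spread between 3 biological replicates per age. With day as a number, the spread also holds departures of the ages from a straight line. Those of the ratios come from permuting the 15 libraries. Total counts of 3409371 to 7814951 limit precision for genes of few counts. DESeq2 1.42.0, limma-voom, other scalings, filters and time scales, left-out ages and libraries and a replicate block were tried as alternatives. The tests were tested on simulated data. RefSeq windows (GRCm38.p6) gave the promoters. Values by library are given for the paralog pairs, the 6 genes highest in RPKM and the 6 called genes with the largest fall per day, and for Hnrnpc, chosen after its values were seen. The genes and lists were chosen with earlier results of these data known. Protein sequences were not analysed here.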

Additional observations from a re-analysis of the deposited data

How the results depend on the processing

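The count of 19 genes falling with day stayed within 17 to 25 under other scalings, filters, tests and time scales, and 15 of the 19 were called in every fit that left out 1 library. It was 12 without the P0 libraries, 12 without the P21 libraries, 8 with P8, P14 and P21 alone and 11 among genes with little shared sequence, the last 2 chosen after seeing the data. These settings hold fewer libraries or fewer genes. The count rising was 1 with DESeq2 and 1 with limma-voom. On total counts without TMM 25 genes fell, while the median slope of all genes moved from -0.0077 to -0.025 and the share of falling genes among all calls from 53.9% to 70.0%. The median slope of the 44 genes moved with it, from -0.031 to -0.048. Of the 44 slopes, 3 changed sign without TMM, 1 on log2(day + 1), 4 without P0, 8 with P8, P14 and P21 alone and 0 under the other scalings, filters and tests, without P21 and with the replicate block. Among the 28 genes whose slopes were followed by the rule for named genes, these were Tra2a (-0.0017) and Sf3b2 (-0.0046) without TMM, Srsf6 (0.014 per unit of log2(day + 1)), and Tra2a (-0.019) and U2af1 (0.0014) with P8, P14 and P21 alone, none of which passed a test under that setting. The cause was not tested.

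Leaving out 1 library at a time, the falling count ran from 16 to 19, the rising count from 0 to 1, the count lower at P4 than P0 from 0 to 1, the count higher at P21 than P0 from 0 to 2, the count lower at P21 than P0 from 11 to 17 and the count lower at P14 than P8 from 2 to 4. For the ratios, r was -0.053 for Hnrnpul1 to Hnrnpul2, 0.67 for Srsf10 to Srsf12 and -0.58 for U2af1 to U2af1l4 without P0, and -0.40 for U2af1 to U2af1l4 and -0.68 for Sf3b1 to Sf3b2 with P8, P14 and P21 alone. With 1 library left out r ran from -0.14 to 0.23 for Hnrnpul1 to Hnrnpul2, from -0.24 to 0.068 for Srsf3 to Srsf7, from 0.42 to 0.67 for Srsf10 to Srsf12 and from -0.67 to -0.52 for U2af1 to U2af1l4.

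Replicate numbers did not pair the libraries: deviations from the age means correlated at a mean r of -0.0033 between libraries of the same number and 0.0017 between others. With the replicate block 18 genes fell, the same genes but for Srsf12, and 2 were lower at P14 than at P8.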
